A study of Mus musculus with 15 samples.

Results

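The keratin gene family was taken as every gene named Krt with a number and at most 1 letter that had a transcript cluster (the probe set of a gene on the array) annotated to that gene alone. It came to 52 of the 22180 genes on the arrays. Krt74, a pseudogene in mouse, was left out, and Krt5 had no cluster of its own. The 52 genes were grouped into 5 simple epithelial, 3 basal, 16 squamous and 24 hair keratins, with 4 more that were not grouped. In RefSeq assembly GRCm38.p6, 27 of them lie on chromosome 11 and 25 on chromosome 15, where Krt18 lies among type II keratins.

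Keratins are the intermediate filament proteins of epithelial cells. A type II keratin pairs with a type I keratin to build the filament, and the pair in use differs between epithelia. Simple keratins such as Krt8 and Krt18 fill the luminal cells of the mammary gland. Krt5 and Krt14 fill basal and myoepithelial cells, Krt6a and Krt16 appear in activated or squamous epithelium, and hair keratins build the hair shaft and the inner root sheath around it.

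The tumors were mammary tumors of ErbB2KI mice, in which Erbb2 drives tumor growth, frozen at end burden. All groups carry ErbB2KI. They were wt/wt (WT), fl/wt (HET) or fl/fl (HOM) for Ctnnb1, the beta-catenin gene, whose floxed alleles were to be deleted in mammary epithelium, with 5 tumors of each genotype and 1 array per tumor. The labels name neither the Cre line nor the age of the mice, and they do not say whether each tumor came from a separate mouse. The p-values here therefore reflect only how much these tumors vary. Values are log2 array values. They are compared between tumors within a gene and never between genes, because each cluster has its own probe response.

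The Ctnnb1 level lay between 11.71 and 12.10 in the tumors labelled WT 1 to WT 4, between 11.22 and 11.66 in HET, and between 11.15 and 11.58 in HOM 1 to HOM 4. It was 11.22 in WT 5 and 12.01 in HOM 5, which goes against their labels. The WT and HOM values below include these libraries under those labels. With all 15 tumors, Ctnnb1 differed by -0.34 in HET against WT (limma, adjusted p = 0.448). The difference was -0.36 in HOM against WT and -0.0209 in HOM against HET. None of the 3 had an adjusted p under 0.05. The mean of 15 epithelial markers other than keratins lay between 9.45 and 11.09 in 14 tumors and was 7.48 in HET 1. Some tumors stood apart in markers of other cells. HET 1 had the highest mean of B and plasma cell markers (10.66, against 6.61 to 8.59 in the others), and HET 3 of skeletal muscle markers (11.51, against 6.13 to 7.46). HET 4, second lowest in the epithelial mean, had the highest mean of fibroblast (11.63) and endothelial markers (10.56). The fibroblast mean was lowest in HET 5 (7.00) and WT 1 (7.30) and 8.21 to 10.39 in the remaining tumors. The parts of these cells in the keratin values of HET 4, HET 5 and WT 1 were not tested. The Erbb2 level was 11.11 ± 0.88 (SD, n = 5) in WT, 12.70 ± 0.23 in HET and 11.53 ± 1.04 in HOM. Every HET tumor lay above every WT tumor, with a limma adjusted p of 0.224, and WT 1 was the lowest of all at 9.63. In whole tumors, fewer cells of a type and less RNA per cell cannot be told apart.

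No keratin differed between genotypes past the threshold. The test was limma over 14243 genes with Benjamini-Hochberg adjustment at 0.05, on genes above the array median in at least 5 tumors. Of the 52 keratins, 31 passed this filter on level. Of these, 0 passed in HET against WT, 0 in HOM against WT and 0 in HOM against HET, where 0.014%, 0% and 0% of all genes tested did. At an unadjusted p under 0.05 there was 1 keratin in HET against WT, 0 in HOM against WT and 1 in HOM against HET, beside 13.4%, 1.7% and 7.93% of all genes. No keratin had groups without overlap in any of the comparisons, beside 1.58%, 0.281% and 1.03% of genes. No setting or left-out tumor that was tried made a keratin pass, including the removal of WT 5 and HOM 5 together. The comparisons with WT share the WT tumors, and those with HET the HET tumors. The HET mean was above the WT mean in 14 of 31 keratins (45.5% of all genes), the HOM mean above the WT mean in 18 of 31 (47.2%), and the HOM mean above the HET mean in 20 of 31 (52.4%).

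Over all 15 tumors the keratins had wider ranges than genes in general. The range over the 15 tumors exceeded 4 log2 units in 13 of the 52 keratins (25%), against 3.88% of all 22180 genes, a limit chosen here for description. The median range was 2.35 for the 52 keratins and 0.956 for all genes. WT 1 (in hair keratins), HET 1 and HET 3 were set aside as standing apart, a choice made after seeing the values. Without these 3 tumors the median ranges were 0.902 and 0.841. The limit was exceeded by 8 of 52 keratins (15.4%) and 2.34% of all genes. These tumors were picked for extreme values, so the fall was built in and does not show where the spread came from. HET 2 was kept, though it was the highest tumor in 9 of the 52 keratins and HET 3 in 8. Among the 31 tested keratins, the SD was largest in HET in 18, in WT in 12 and in HOM in 1. Among all genes tested, it was largest in HET in 45.9%, in WT in 35.2% and in HOM in 18.9%.

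**Figure D1:**
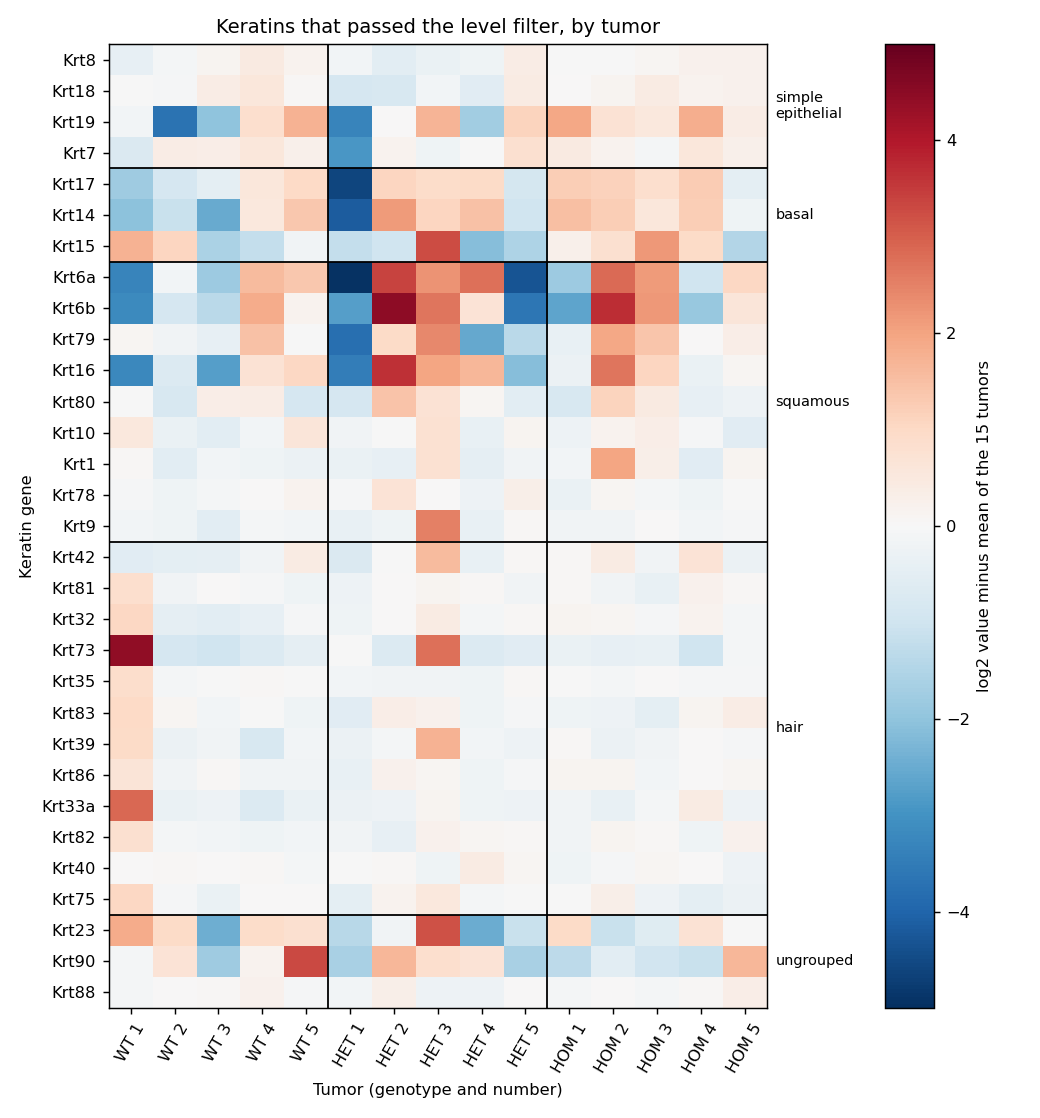
Each row is a keratin that passed the level filter (31 genes, in their groups) and each column is a tumor; the color gives the log2 value minus the mean of that gene over the 15 tumors. Krt6a, Krt6b and Krt16 span red and blue within each genotype, HET 1 is low in most simple, basal and squamous rows, and WT 1 is red in most hair rows.

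The simple keratins Krt8 and Krt18 form the main filament of luminal mammary cells. Over the 15 tumors Krt8 spanned 0.957 log2 units and Krt18 1.40, where the median range of all genes was 0.956. The Krt8 level was 11.77, 12.07, 12.31, 12.60 and 12.32 in WT 1 to WT 5, 12.04, 11.64, 11.83, 11.96 and 12.54 in HET 1 to HET 5, and 12.15, 12.16, 12.27, 12.39 and 12.39 in HOM 1 to HOM 5. All 15 tumors lay within 0.957 log2 units, and the genotypes overlapped. HET 1 had 12.04, inside the WT range, although its mean of the other epithelial markers was the lowest. Krt18 was 11.89, 11.88, 12.31, 12.48 and 11.96 in WT 1 to WT 5, 11.08, 11.13, 11.79, 11.37 and 12.32 in HET 1 to HET 5, and 11.95, 12.08, 12.35, 12.12 and 12.15 in HOM 1 to HOM 5. All HET tumors but HET 5 lay below every WT and every HOM tumor, and HET 5 lay among them.

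Krt18 had the smallest p of all keratins in HET against WT. Its mean was 11.54 ± 0.52 (SD, n = 5) in HET and 12.11 ± 0.27 in WT, a difference of -0.57 with a standard error of 0.214 (limma, adjusted p = 0.292). HOM, at 12.13 ± 0.15, differed from HET by 0.59 with the same standard error (adjusted p = 0.587), also the smallest p of that comparison. Neither passed. Krt18 has a second cluster of lower signal, where WT had 9.56 ± 0.52, HET 9.06 ± 0.34 and HOM 9.59 ± 0.42. The HET mean was the lowest on both. The mean of 10 neutrophil markers ran from 6.14 to 7.68 over the WT tumors, 7.72 to 10.85 over HET and 6.87 to 9.25 over HOM. HET and WT did not overlap in it, and its part in the Krt18 values was not tested. Krt8 differed by -0.21 in HET against WT (95% interval -0.58 to 0.16, adjusted p = 0.597), by 0.0594 in HOM against WT (-0.31 to 0.43) and by 0.27 in HOM against HET (-0.10 to 0.64, adjusted p = 0.690). The HOM difference from WT was -0.0517 without WT 1, and the HET difference from WT was -0.12 without WT 4 and -0.35 without HET 5.

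Krt8 and Krt18 are neighbouring protein-coding genes on chromosome 15. The stretches before their start sites are shown because the members of this pair varied together across the tumors.
Krt8, chr15:102004343-102004592, minus strand: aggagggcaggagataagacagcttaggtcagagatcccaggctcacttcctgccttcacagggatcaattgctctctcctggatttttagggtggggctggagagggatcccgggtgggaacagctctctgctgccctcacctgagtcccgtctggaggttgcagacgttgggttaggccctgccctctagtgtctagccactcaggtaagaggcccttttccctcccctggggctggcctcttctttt
Krt18, chr15:102027966-102028215, plus strand: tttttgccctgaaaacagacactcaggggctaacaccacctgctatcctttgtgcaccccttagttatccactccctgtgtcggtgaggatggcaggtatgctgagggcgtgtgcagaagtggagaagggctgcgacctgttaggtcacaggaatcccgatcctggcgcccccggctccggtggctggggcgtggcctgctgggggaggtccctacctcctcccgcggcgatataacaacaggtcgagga
Both are from RefSeq (GRCm38.p6), 5′ to 3′ on the strand of the gene, and end at the base before the start site. Of the 52 keratins, 35 had such an entry. Each was searched on both strands for TATAAA (the TATA box), CTTTGAT (a core of TCF/LEF sites) and GGGCGG (a core of Sp1 sites), with matches in capitals. These letters occur in neither stretch. Of 32851 mouse promoter stretches of 250 bases, 12.4% hold the first, 3.21% the second and 32.7% the last, and of the 35 keratin stretches 17, 2 and 2 do.

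The ductal keratins Krt7 and Krt19 also belong to simple epithelium and had wider ranges, 3.71 and 5.61 log2 units. Krt19 was 9.95, 6.43, 8.07, 10.95 and 11.83 in WT 1 to WT 5, 6.81, 10.13, 11.82, 8.37 and 11.22 in HET 1 to HET 5, and 12.04, 10.84, 10.65, 11.94 and 10.49 in HOM 1 to HOM 5. The 5 HOM tumors lay between 10.49 and 12.04, while WT and HET each spanned low and high values. Krt19 had the smallest p of the keratins in HOM against WT, with 11.19 ± 0.74 against 9.45 ± 2.19, a difference of 1.74 (95% interval -0.49 to 3.98, adjusted p rounding to 1), and 0.989 without WT 2. Krt7 was 4.86 in HET 1 and 7.04 in WT 1, and between 7.58 and 8.57 in the other 13 tumors. Krt20, a keratin of gut epithelium, did not pass the filter. HOM 4 had 6.97, and the others had 4.40 to 5.48.

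**Figure D2:**
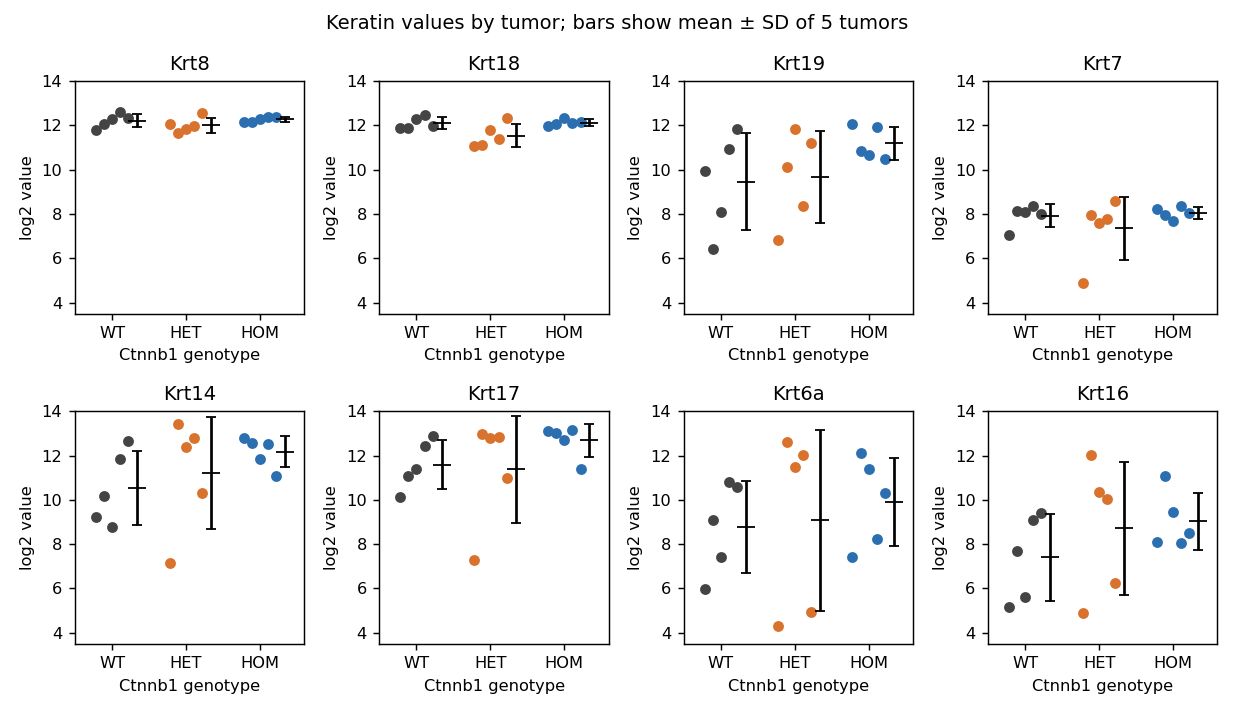
Log2 values (y axis) of 8 keratins by Ctnnb1 genotype (x axis), with 1 point per tumor in label order and the mean ± SD of 5 tumors beside them. Krt8 stays within 0.957 log2 units over all tumors, whereas Krt6a runs from 4.31 to 12.62 within HET.

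Krt14 and Krt17, keratins of basal epithelium that lie close together on chromosome 11, were high and low in much the same tumors. Krt14 was 9.24, 10.18, 8.79, 11.85 and 12.66 in WT 1 to WT 5, 7.16, 13.43, 12.37, 12.77 and 10.32 in HET 1 to HET 5, and 12.81, 12.55, 11.86, 12.53 and 11.09 in HOM 1 to HOM 5. It was lowest in HET 1, low in WT 1 to WT 3 and HET 5, and high in WT 5, in HET 2 to HET 4 and in HOM 1, HOM 2 and HOM 4. Krt17, which also appears in stressed epithelium, was 10.11, 11.05, 11.39, 12.45 and 12.88 in WT 1 to WT 5, 7.29, 12.97, 12.79, 12.84 and 11.00 in HET 1 to HET 5, and 13.12, 13.03, 12.71, 13.17 and 11.38 in HOM 1 to HOM 5. HOM 5 stood below the other 4 HOM tumors, and HET 1 lay far below all others. Jup, the plakoglobin gene of desmosomes and also on chromosome 11, was lowest in HET 1 at 9.94 and next in HOM 5 at 11.17. WT 5, HET 3 and HOM 1 to HOM 4 had 12.79 to 12.98. HET 2 and HET 4, both high in Krt14 and Krt17, had Jup values of 12.25 and 11.42. WT 1 to WT 4 and HET 5 had 11.31 to 11.91.

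Krt14 had a HOM mean of 12.17 ± 0.70, a HET mean of 11.21 ± 2.54 and a WT mean of 10.54 ± 1.66. The differences were 0.67 for HET against WT (95% interval -1.58 to 2.92, adjusted p = 0.802), 1.62 for HOM against WT (-0.62 to 3.87, adjusted p rounding to 1) and 0.96 for HOM against HET (-1.29 to 3.20, adjusted p = 0.829). The first was 0.115 without HET 2 and 1.68 without HET 1, and the last was -0.0571 without HET 1. Krt17 differed by -0.20 in HET against WT (-2.20 to 1.80, adjusted p = 0.945), by 1.11 in HOM against WT (-0.89 to 3.10) and by 1.30 in HOM against HET (-0.70 to 3.30, adjusted p = 0.727). The first of these was 0.825 without HET 1, 0.0212 without WT 4 and 0.13 without WT 5, and the last was 0.28 without HET 1. Every 95% interval given here for Krt14 and Krt17 included 0. The mean of 10 myoepithelial markers ran from 7.64 to 8.83 over the WT tumors, 7.52 to 9.62 over HET and 8.40 to 8.99 over HOM, and its part in these values was not tested.

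Krt15, a keratin of basal and hair follicle stem cells, did not share this pattern. It was 8.40, 7.76, 5.11, 5.49 and 6.47 in WT 1 to WT 5, 5.49, 5.69, 9.92, 4.53 and 5.12 in HET 1 to HET 5, and 6.93, 7.48, 8.82, 7.63 and 5.19 in HOM 1 to HOM 5. HET 3 was the highest and HET 4 the lowest, 2 tumors that were alike in Krt14. Krt5, the usual partner of Krt14, shares its cluster with Krt6a in the annotation and was not named from it. That cluster ranged from 6.39 in HET 1 to 12.95 in HET 2, with 9.54 ± 1.64 in WT, 10.40 ± 2.97 in HET and 10.55 ± 1.28 in HOM.

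Of the squamous keratins, 9 of 16 passed the filter. Krt6a, Krt6b and Krt16, which are switched on in wounded, proliferating or squamous epithelium, had the widest ranges of the family, from 7.11 to 8.31 log2 units. Krt6a was 5.97, 9.10, 7.43, 10.82 and 10.60 in WT 1 to WT 5, 4.31, 12.62, 11.49, 12.01 and 4.95 in HET 1 to HET 5, and 7.44, 12.10, 11.40, 8.24 and 10.31 in HOM 1 to HOM 5. HET 2, HET 3, HET 4, HOM 2 and HOM 3 had 11.40 or more, WT 4, WT 5 and HOM 5 had 10.31 to 10.82, and WT 1, HET 1 and HET 5 had 5.97 or less. Tumors of each genotype thus lay several log2 units apart. Krt6b was 5.55, 7.89, 7.40, 10.61 and 8.92 in WT 1 to WT 5, 5.98, 13.20, 11.41, 9.44 and 5.14 in HET 1 to HET 5, and 6.09, 12.45, 10.91, 6.84 and 9.37 in HOM 1 to HOM 5. Krt6a and Krt6b are near-identical copies, so signal may be shared between their probes. HET 4 was high in Krt6a and lower in Krt6b than HET 2 and HET 3.

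Krt16, the type I partner of Krt6a, was 5.17, 7.70, 5.61, 9.11 and 9.41 in WT 1 to WT 5, 4.91, 12.02, 10.33, 10.06 and 6.24 in HET 1 to HET 5, and 8.09, 11.05, 9.46, 8.03 and 8.49 in HOM 1 to HOM 5. It was high in the tumors that were high in Krt6a. The HET mean was 8.71 ± 3.00, the HOM mean 9.03 ± 1.27 and the WT mean 7.40 ± 1.95. Krt16 differed by 1.31 in HET against WT (95% interval -1.42 to 4.04, adjusted p = 0.663), by 1.62 in HOM against WT (-1.11 to 4.36, adjusted p rounding to 1) and by 0.31 in HOM against HET (-2.42 to 3.05, adjusted p = 0.962). The first was 0.484 without HET 2 and 2.26 without HET 1, and the HOM difference from WT was 1.07 without WT 1. The last was -0.64 without HET 1, -0.31 without HET 5 and -0.195 without HOM 2.

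Markers of squamous differentiation that are no keratins were high in some of the same tumors. Krtdap, a secreted protein of differentiating keratinocytes, was 11.64 in HET 2, 11.33 in HET 3, 11.77 in HOM 2 and 10.72 in HOM 3, 8.63 in WT 4 and 5.10 to 6.13 elsewhere. Involucrin (Ivl), a cornified envelope protein, was 11.16 in HET 2, 11.21 in HET 4 and 10.11 in HOM 2, and 8.82 or less elsewhere. Of 16 cornified envelope genes tested, 0 rose and 0 fell in any comparison. The mean was higher in 15 in HET against WT, in 16 in HOM against WT and in 6 in HOM against HET. Of all genes tested, 45.5%, 47.2% and 52.4% had a higher mean. The unadjusted p was under 0.05 for 1, 0 and 0 of the 16, beside 13.4%, 1.7% and 7.93% of all genes. In the mean of the 16, HET 1 (6.41), HET 5 (6.13), HOM 1 (6.38) and HOM 4 (6.54) lay below every WT tumor. HET 2, HET 3, HET 4, HOM 2 and HOM 3 lay above every WT tumor (6.59 to 8.21). HET 4 was thus high in Krt6a and Ivl and low in Krtdap, at 5.82. Trp63, the basal transcription factor p63, was highest in HET 2 (10.37) and lowest in HET 1 (6.38). Among late epidermal genes, loricrin (Lor) ran from 5.53 to 6.29 over all tumors, with its maximum in HOM 5. Filaggrin (Flg) ran from 4.75 to 6.29, with a median of 5.34. It was highest in HOM 2 (6.29), HET 2 (6.21) and HET 3 (5.94), which were also high in Krtdap. HOM 3, high in Krtdap too, lay below HET 5 in Flg. Many of these values lie near or below the array medians. The parts of Trp63 and of squamous cell content in the keratin values were not tested.

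The other squamous keratins that passed the level filter were Krt1, Krt9, Krt10, Krt78, Krt79 and Krt80. Krt1 and Krt10, the pair of differentiating epidermis, were highest in different tumors: Krt1 was 7.83 in HOM 2 and 5.32 to 6.62 in the others, and Krt10 was 6.01 to 7.34, with its maximum in HET 3. HET 3 had 8.26 of Krt9, a keratin of palm and sole skin, and the remaining tumors had 5.22 to 5.80. It had the smallest p of the keratins with a higher HET mean than WT (6.06 ± 1.24 against 5.52 ± 0.18, adjusted p = 0.589), and its difference of 0.54 was -0.0117 without HET 3. HET 3 is the tumor with high skeletal muscle markers, whose part in its keratin values was not tested. Krt78 had the smallest p of those with a lower HOM mean than HET (5.67 ± 0.16 against 5.91 ± 0.36, difference -0.25, adjusted p = 0.690, and -0.12 without HET 2). Krt79 ranged from 4.95 in HET 1 to 11.13 in HET 3, and Krt80 from 6.88 in WT 5 and HET 1 to 9.12 in HET 2. Krt2, Krt4, Krt12, Krt13, Krt24, Krt76 and Krt77 did not pass the filter, and none exceeded 5.82 in any tumor. Krt4 and Krt13 are the pair of non-cornified mucosa, and Krt12 is the keratin of the cornea.

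**Figure D3:**
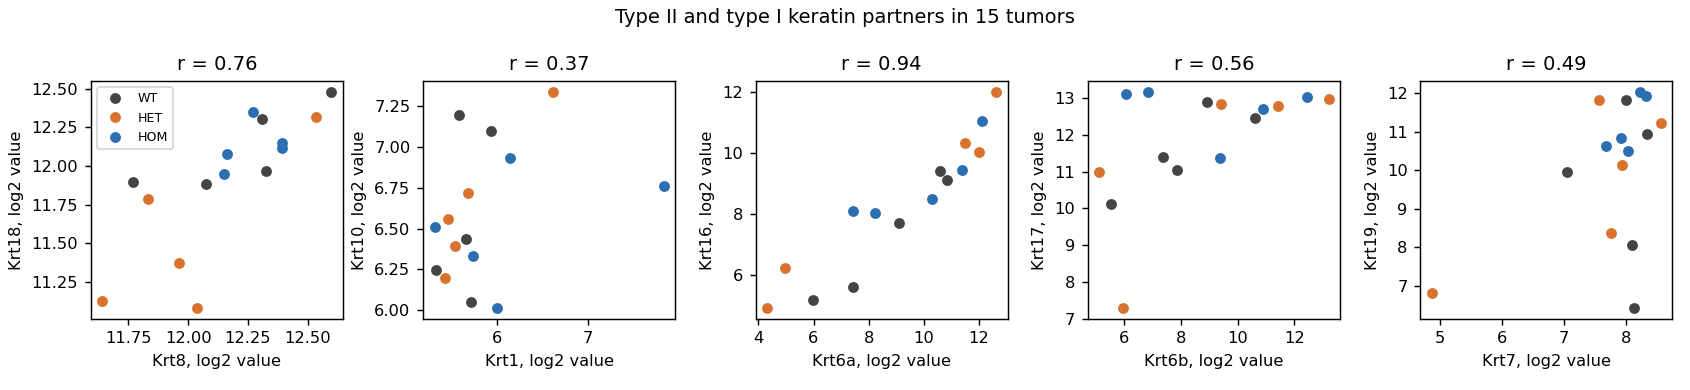
Each panel plots a type II keratin (x axis, log2 value) against its type I partner (y axis, log2 value), with 1 point per tumor colored by genotype. Krt6a and Krt16 lie close to a line (r = 0.94), and Krt1 and Krt10 are scattered (r = 0.37).

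Textbook partners were compared over the 15 tumors, 5 pairs in all, with two-sided permutation tests and Benjamini-Hochberg adjustment over the pairs. Krt5 had no cluster of its own and Krt4 and Krt13 were below the filter, so their pairs were left out. Keratins that are not partners were not correlated, so these values cannot tell partnership from shared variation of a group. Krt6a and Krt16 had r = 0.94 and rho = 0.97 (permutation p = 1e-05 for each, the smallest that the resamples can give, both 5e-05 adjusted), and r = 0.93 without HET 1 and HET 5, the 2 tumors farthest from the median of Krt6a. Krt8 and Krt18 had r = 0.76 and rho = 0.85 (permutation p = 0.00086 and 0.00018, adjusted 0.00215 and 0.00045). Without HET 2 and WT 4 their r was 0.62, with an adjusted p of 0.0566, and rho was 0.79. Krt6b and Krt17 had r = 0.56 and rho = 0.46 (permutation p = 0.0233 and 0.0838, adjusted 0.0388 and 0.140), and r = 0.53 without HET 2 and HET 5, past the threshold no longer (adjusted p = 0.0861). Krt7 and Krt19 had r = 0.49 and rho = 0.40 (permutation p = 0.0595 and 0.145, adjusted 0.0744 and 0.181), and r = 0.11 without HET 1 and WT 1. Krt1 and Krt10 had r = 0.37 and rho = 0.35 (permutation p = 0.172 and 0.201, the same after adjustment), and r = 0.24 without HOM 2 and HET 3. With the genotype means taken out, r was 0.96 for Krt6a and Krt16 and 0.71 for Krt8 and Krt18. Groups of 5 tumors are too small for a correlation within a genotype.

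The hair keratins stood out in 1 tumor, WT 1. There, all 7 keratins of the inner root sheath, the layer that moulds the growing hair, were higher than in each of the other 14 tumors. Krt73 was 10.61 in WT 1 with a median of 5.68 in the others, and Krt72 was 9.32 with a median of 5.07. These are type II keratins. Their type I partners did likewise, with 8.56 against 4.67 for Krt28, 8.58 against 5.39 for Krt27, 8.18 against 4.49 for Krt26 and 7.40 against 4.79 for Krt25. Krt71 was 7.36 against 4.95. The 7 genes were thus 2.41 to 4.93 log2 units above the median of the other tumors. Outside WT 1, HET 3 was the highest in Krt73 (8.93), Krt25 (6.31), Krt28 (5.61) and Krt72 (5.42).

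Of all 24 hair keratins, WT 1 was the highest tumor in 19 (79.2%), against 15.1% of all 22180 genes. It exceeded every other tumor by more than 1 log2 unit in 12 of 24, against 0.852% of all genes. Shaft keratins were among them, with Krt33a at 8.67 (other tumors 5.14 to 6.21), Krt33b at 7.49 (5.09 to 5.74), Krt34 at 7.20 (at most 5.81) and Krt31 at 6.65, which was 1.66 above the highest other tumor. WT 1 was not the highest in Krt36, Krt39, Krt40, Krt42 and Krt84. Krt39 and Krt42 were highest in HET 3, at 7.64 and 8.95. WT 1 is a single tumor, so these values are a description with no test. Many of the other values lie near or below the array medians of 5.54 to 5.73, and no detection call was used here, so the size of these differences is uncertain.

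**Figure D4:**
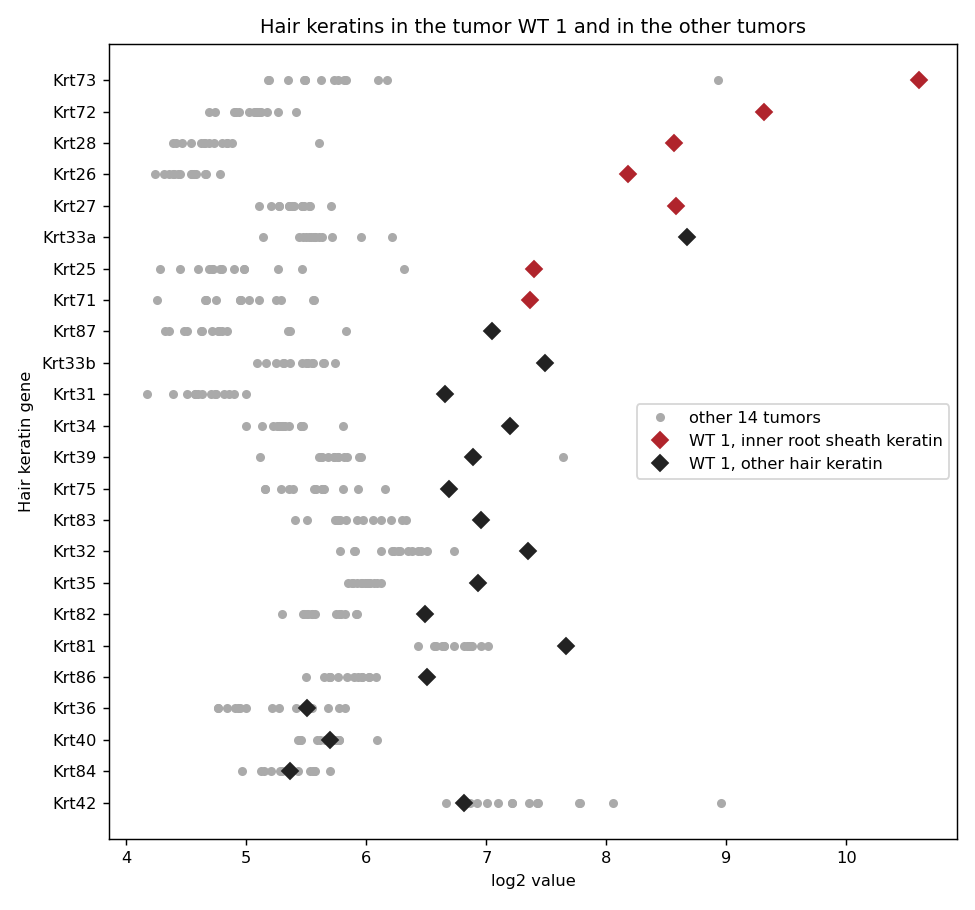
Each row is a hair keratin, with the log2 value of WT 1 as a diamond (red for inner root sheath keratins) and the other 14 tumors as grey points. All 7 red diamonds lie to the right of every grey point in their row.

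Other hair genes were high in WT 1 too. Trichohyalin (Tchh), which binds keratin filaments in the inner root sheath, was 8.90 in WT 1, 5.60 in HET 3 and 3.29 to 4.63 in the other 13 tumors. S100a3, a calcium-binding protein of the hair cuticle, was 9.23 in WT 1 and 6.31 to 7.53 elsewhere. Of 51 genes for keratin-associated proteins, which crosslink hair keratins, WT 1 was the highest tumor in 36 (70.6%) and more than 1 log2 unit above all others in 20 (39.2%); this set was chosen after its values were seen. Of the 19 genes listed for hair, sebaceous gland and pigment cells, WT 1 was the highest in 11. Melanocyte genes were at 3.05 to 3.71 for Tyr and 4.12 to 4.78 for Tyrp1 over all tumors, and WT 1 had 5.78 for Dct (4.96 to 5.56 in the others). WT 1 was not the highest in Pmel, with 6.26 against up to 6.63, or in Mlana, with 5.87 against a median of 5.95 and 8.09 in WT 2. Axin2, a feedback target of beta-catenin, was 10.78 in WT 1 and 6.48 to 7.81 elsewhere. Lef1 was 5.64 there, close to its lowest value of 5.63. The parts of skin tissue in the sample and of Axin2 in these values were not tested.

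The stretches before the start sites of 3 inner root sheath keratins are shown because these genes were high together in WT 1.
Krt26, chr11:99337966-99338215, minus strand: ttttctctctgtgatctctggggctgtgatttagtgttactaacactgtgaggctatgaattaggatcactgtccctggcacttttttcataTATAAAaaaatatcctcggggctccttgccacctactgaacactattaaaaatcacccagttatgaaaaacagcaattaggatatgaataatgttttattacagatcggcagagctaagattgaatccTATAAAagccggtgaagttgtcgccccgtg
Krt28, chr11:99374904-99375153, minus strand: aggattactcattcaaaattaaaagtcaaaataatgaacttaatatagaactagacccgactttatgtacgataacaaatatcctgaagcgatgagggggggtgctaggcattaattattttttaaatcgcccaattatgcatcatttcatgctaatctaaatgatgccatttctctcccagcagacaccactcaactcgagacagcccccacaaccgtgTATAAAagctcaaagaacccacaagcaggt
Krt73, chr15:101802361-101802610, minus strand: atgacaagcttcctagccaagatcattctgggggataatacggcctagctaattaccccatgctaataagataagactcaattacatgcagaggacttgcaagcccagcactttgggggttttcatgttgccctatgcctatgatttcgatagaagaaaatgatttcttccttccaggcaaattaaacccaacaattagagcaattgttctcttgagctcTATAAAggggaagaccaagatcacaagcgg
Capitals mark TATAAA. The other motifs named above, searched in the same way, do not occur in these stretches. In each of the 3 TATAAA begins at position -30, where the base before the start site is -1, and Krt26 holds a further match upstream. In inner root sheath keratins not shown here, it begins at -30 in Krt25, -15 in Krt27 and -40 in Krt71. Within the last 50 bases before the start and on the gene's own strand, 6 of the 7 inner root sheath keratins (all but Krt72) hold TATAAA, as do 11 of 18 hair keratins with an entry, 4 of 17 other keratins and 2.63% of all stretches. CTTTGAT occurs in 0 of the 7, on either strand, and in 3.21% of all stretches. A match describes the letters and shows no bound factor, and no match says only that the letters are not in this stretch.

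Between genotypes the 12 hair keratins that passed the filter had a median difference of -0.10 in HET against WT, -0.11 in HOM against WT and 0.00266 in HOM against HET, where all genes tested had -0.0299, -0.0117 and 0.0139. Krt35, a shaft keratin, had the smallest p of the keratins with a lower HOM mean than WT, at 6.01 ± 0.04 against 6.21 ± 0.41 (difference -0.20, adjusted p rounding to 1). WT 1 alone had 6.93, and without it the difference was -0.0225.

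**Figure D5:**
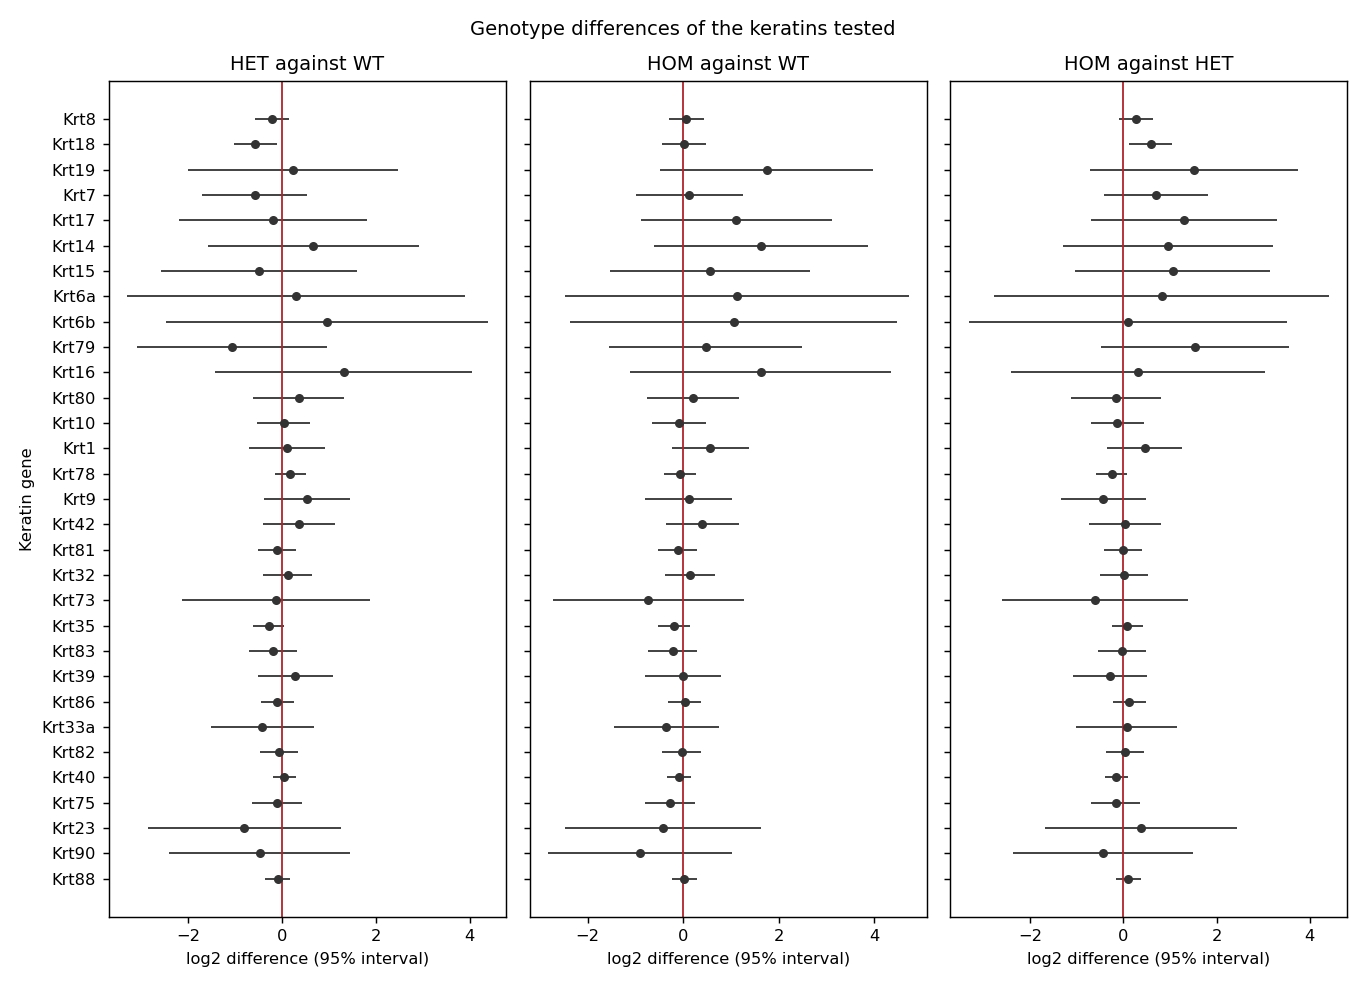
Log2 differences (x axis) of the 31 tested keratins (rows) in the 3 genotype comparisons, with points for the estimate and bars for its 95% interval from the limma fit. Only the Krt18 intervals of HET against WT and HOM against HET exclude 0, before adjustment over all genes.

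By group, the 4 simple keratins tested had median differences of -0.39 in HET against WT, 0.0903 in HOM against WT and 0.65 in HOM against HET, with 3 of 4 lower in HET than in WT and all 4 higher in HOM than in HET. The 3 basal keratins had medians of -0.20, 1.11 and 1.06. The 9 squamous keratins had medians of 0.29, 0.47 and 0.0992. Of these 9, 8 were higher in HET than in WT and 7 were higher in HOM than in WT. Of all genes tested, 45.5% had a higher mean in HET than in WT. For HOM the shares were 47.2% against WT and 52.4% against HET. The squamous mean lay between 6.40 and 8.04 in WT. It was 5.56 in HET 1 and 6.13 in HET 5, 7.55 in HET 4, and 8.96 in HET 2 and 8.98 in HET 3. In HOM it ran from 6.66 in HOM 1 to 9.02 in HOM 2, the highest of all tumors, with 8.29 in HOM 3. The mean of the epithelial markers without keratins was 10.16 to 10.91 in WT, 7.48 to 11.09 in HET and 9.96 to 11.02 in HOM. Its 15 genes were lower in HET than in WT in 15 of 15 and higher in HOM than in HET in 15 of 15. The mean of these genes was 7.48 in HET 1 and 9.45 in HET 4. HET 2, HET 3 and HET 5 had 10.56, 10.72 and 11.09, within or above the WT range. With this mean as a covariate the HET differences from WT were -0.38 for Krt18, 1.69 for Krt14, 0.87 for Krt17 and 2.14 for Krt16. The HOM differences from HET were 0.41, -0.0562, 0.24 and -0.51, and none of either passed the threshold. HET 1 lay far below the other tumors in this mean, and leaving it out gave similar HET differences from WT. Those were -0.45 for Krt18, 1.68 for Krt14, 0.825 for Krt17 and 2.26 for Krt16, so the covariate is no independent check. None of these counts has a test of its own.

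The keratins outside these groups included Krt23, a type I keratin on chromosome 11, which ranged from 5.99 in HET 4 and 6.05 in WT 3 to 11.66 in HET 3. Krt90 was 11.00 in WT 5 and 5.92 to 9.36 in the others. Krt88 was even, at 5.86 to 6.45, and Krt222 did not pass the filter. All 21 keratins below the filter lay between 4.18 and 6.97 once WT 1 was set aside, and reached 9.32 in WT 1.

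Genes that anchor or regulate keratin filaments were read from a list of 21, of which 18 were tested. In each comparison 0 rose and 0 fell by limma. At an unadjusted p under 0.05 there were 1 in HET against WT, 0 in HOM against WT and 1 in HOM against HET. The shares of all genes were 13.4%, 1.7% and 7.93%. The mean was higher in HET than in WT for 10 of the 18 (45.5% of all genes). It was higher in HOM than in WT for 10 (47.2%), and higher in HOM than in HET for 9 (52.4%). The median differences were 0.0492, 0.0674 and -0.0295. Desmoplakin (Dsp), which ties keratin filaments to desmosomes, ranged from 6.95 in HET 1 and 8.12 in WT 1 to 12.15 in HET 2, and differed by 0.22 in HET against WT and 0.27 in HOM against WT (adjusted p = 0.926 and rounding to 1). Of 16 other intermediate filament genes 11 were tested, and 0 rose or fell. The unadjusted p was under 0.05 for 2, 0 and 1 of them, beside 13.4%, 1.7% and 7.93% of all genes. Vimentin (Vim), the filament of mesenchymal cells, was 11.09 in WT 1 and 11.85 to 13.22 in the others.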

How the data were processed

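RNA of 15 mammary tumors was measured on 1 Affymetrix mouse array each. The values are log2 values as deposited by the authors, with array medians of 5.54 to 5.73. Per the submitters' processing notes, Affymetrix Expression Console and Transcriptome Analysis Console were used, while the sources used here do not give the normalization method or the genome build. Of 41345 transcript clusters, 23521 carried 1 gene symbol, 1814 several and 16010 none, and 23328 matched RefSeq (GRCm38.p6) by Entrez number. The brightest cluster stood for a gene. Scanner files were not used here, so there was no detection call and no scan batch, and the number of arrays limits the precision.

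Genotypes came from the labels, with tumors numbered in accession order. Genes above the array median on at least 5 arrays were fitted with limma 3.58.1 (R 4.3.3), all 3 genotypes together, without covariates (12 residual degrees of freedom), and p-values were adjusted by Benjamini-Hochberg over 14243 genes. The fit was tested on simulated data of these 14243 genes for HET against WT. There, 58 of 100 genes shifted by 1 log2 unit and 89 of 100 shifted by 2 were called. Of 158 calls, 11 were false. The shifted genes were drawn at random, with normal values and the SD of each gene (median 0.313 over all genes tested). Krt14, Krt16 and Krt6a had SDs of 1.80, 2.16 and 2.72 over the 15 tumors, so these rates do not apply to them. Correlations used 100000 resamples.

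Genotype differences are given for Krt8, Krt14, Krt16 and Krt17, and for the keratin with the smallest p in each direction of each comparison. Other filters, normalization, cluster choice, weights, covariate, samples and moderation were tried. The members, gene lists, motifs and alternatives were chosen with earlier results of these data known, and the removals of WT 1 with HET 1, and of WT 1, HET 1 and HET 3, were added after seeing the values.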

Additional observations from a re-analysis of the deposited data

Results flagged for a closer look

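In 31 of the 156 sets of 5 tumors examined (52 keratins in 3 genotypes), the highest or lowest tumor lay so far from the others that its gap exceeded Dixon's critical share of the range, 0.71. Chance gives this in about 1 in 20 sets of normal values, and over all 22180 genes it held in 7.24% of sets, against 19.9% for the keratins. By genotype the shares were 38.5% in WT, 15.4% in HET and 5.77% in HOM for the keratins, and 8.12%, 7.40% and 6.20% for all genes. WT 1 was the highest WT tumor in 17 of them. Among inner root sheath keratins, it had 7.40 for Krt25, 8.18 for Krt26, 8.58 for Krt27, 8.56 for Krt28, 7.36 for Krt71, 9.32 for Krt72 and 10.61 for Krt73. Among other hair keratins, it had 6.65 for Krt31, 8.67 for Krt33a, 7.49 for Krt33b, 7.20 for Krt34, 6.93 for Krt35, 6.69 for Krt75, 7.66 for Krt81, 6.49 for Krt82 and 6.95 for Krt83. It also had 5.41 for Krt77, a squamous keratin. These flags share 1 tumor and are not independent.

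HET 3 was the highest HET tumor in 6 sets, with 6.62 for Krt1, 8.26 for Krt9, 9.92 for Krt15, 5.95 for Krt33a, 7.64 for Krt39 and 8.93 for Krt73. Single tumors stood high in Krt34 (5.46 in HET 4), Krt79 (10.20 in WT 4), Krt20 (6.97 in HOM 4) and Krt90 (9.36 in HOM 5). Single tumors stood low in Krt7 (7.04 in WT 1 and 4.86 in HET 1), Krt23 (6.05 in WT 3) and Krt17 (11.38 in HOM 5). HOM 5 is a tumor whose Ctnnb1 level goes against its label.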

How the results depend on the processing

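No keratin passed in any comparison under any alternative. The count of all genes passing in HET against WT was 2. It was 0 with a filter at the 75th percentile, with array weights and without WT 1 and HET 1 together, and 1 with renewed quantile normalization, with the epithelial marker mean as covariate and with only those 2 genotypes in the fit. It ran from 1 to 48 when single tumors were left out, with 48 without HET 3 and 18 without HET 5. In HOM against HET the count of 0 became 0 to 3 (1 without HET 3 and 3 without HET 5), and 6 without WT 5 and HOM 5. In HOM against WT it became 4 without WT 5 and HOM 5. Of the 18 named keratin differences, 13 kept their sign throughout. Krt17 in HET against WT (-0.20) was 0.0118 with array weights, 0.87 with the covariate, 0.13 without WT 5 and HOM 5, 0.459 without WT 1 and HET 1, and -0.595 to 0.825 when single tumors were left out. Krt9 in HET against WT was -0.0117 without HET 3, 0.736 without WT 1 and HET 1, and 0.808 with the covariate, its highest value. Krt8 in HOM against WT ran from -0.0517 without WT 1, with or without HET 1, to 0.155 without WT 4. Krt14 in HOM against HET was -0.0562 with the covariate and ran from -0.0571 without HET 1, with or without WT 1, to 1.51 without HET 2. Krt16 in HOM against HET was -0.719 with array weights, -0.511 with the covariate, and ran from -0.638 without HET 1, with or without WT 1, to 1.14 without HET 2. When single tumors were left out, Krt14 in HET against WT ran from 0.115 to 1.68, Krt16 from 0.484 to 2.26, Krt17 in HOM against HET from 0.28 to 1.70 and Krt19 in HOM against WT from 0.989 to 2.34. Without the 2 farthest tumors, the r of Krt8 and Krt18 was 0.616 (adjusted permutation p = 0.0566) and that of Krt6b and Krt17 was 0.531 (adjusted permutation p = 0.0861). After subtraction of the epithelial marker mean, which enters both members of a pair, the r of Krt1 and Krt10 was 0.786 and that of Krt7 and Krt19 was -0.218. The causes were not tested. No paired analysis was possible because the tumor numbers follow accession order and pair no samples. With 5 tumors a genotype and SDs above 1 log2 unit in Krt14, Krt16 and Krt19 in WT and HET, the intervals of these genes span several log2 units.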
